A study of Quercus lobata with 12 samples.

Results

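In leaf RNA of 12 valley oak (Quercus lobata) seedlings, 222 of 39373 genes in the deposited count table were lost in a single seedling. Each of these genes had 3 counts or fewer in exactly 1 seedling and 20 or more counts in each of the other 11. A count is a read assigned to a gene, and the genes were selected on the counts themselves, so the loss, its depth and its spread over seedlings are given as a description. For comparison, 14593 genes had 20 or more counts in at least 11 seedlings, and 13189 of them in all 12.

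The study asked how an experimental loss of DNA methylation changed oak seedlings. The mother trees were HV-11, LAY-15 and YORK-09, and each of these 3 families had 4 seedlings. At an age of 5 months, 6 seedlings received a foliar spray of 5-Azacytidine (50 µM, dissolved in TWEEN 20) over 27 days, and the 6 control seedlings received TWEEN 20 alone. RNA of whole leaf tissue was extracted on day 16, 19 or 30 of October, and each treated seedling had a control seedling of the same family and extraction day, which gives 6 pairs. Every seedling grew from a different wild-collected acorn and had 1 library, so a property of a seedling and a property of its library cannot be told apart. Library totals ran from 9926728 to 11570198 counts, and 25687 to 27483 genes had at least 1 count. In bulk leaf tissue, fewer cells of a type and less RNA per cell cannot be told apart.

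Valley oak is an outcrossing, wind-pollinated tree, so acorns of the same mother can have different fathers and seedlings of a family are not genetically identical. Plant genes can be present in some individuals of a species and missing or silent in others, and such differences often involve gene families that lie in clusters along a chromosome. 5-Azacytidine is a cytosine analogue that becomes part of DNA and blocks the enzymes that copy methyl marks, and DNA methylation is known for keeping some genes and mobile elements silent. These are general points and not results of the present counts. The table names genes by identifier alone, and 0 identifiers were found in RefSeq's list of oak genes, so no function, pathway or leaf marker is given for any gene below.

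The lost genes were unevenly spread over the seedlings. Control seedling LAY-15-30, extracted on day 19, held 97 of the 222 genes (43.7%). The other 11 seedlings held 125 genes, with a median of 11 per seedling. Seedlings treated with 5-Azacytidine lost 17 genes (HV-11-33), 11 (HV-11-40), 12 (LAY-15-09), 8 (LAY-15-34), 5 (YORK-09-08) and 11 (YORK-09-37). Control seedlings lost 13 genes (HV-11-05), 14 (HV-11-34), 8 (LAY-15-03), 97 (LAY-15-30), 10 (YORK-09-03) and 16 (YORK-09-10). Apart from LAY-15-30, the range of the treated seedlings, 5 to 17, covered that of the controls, 8 to 16. LAY-15-30 had the second lowest total of the 12 seedlings, 9957359 counts, while LAY-15-03 had the lowest, 9926728 counts, and lost 8 genes.

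**Figure D1:**
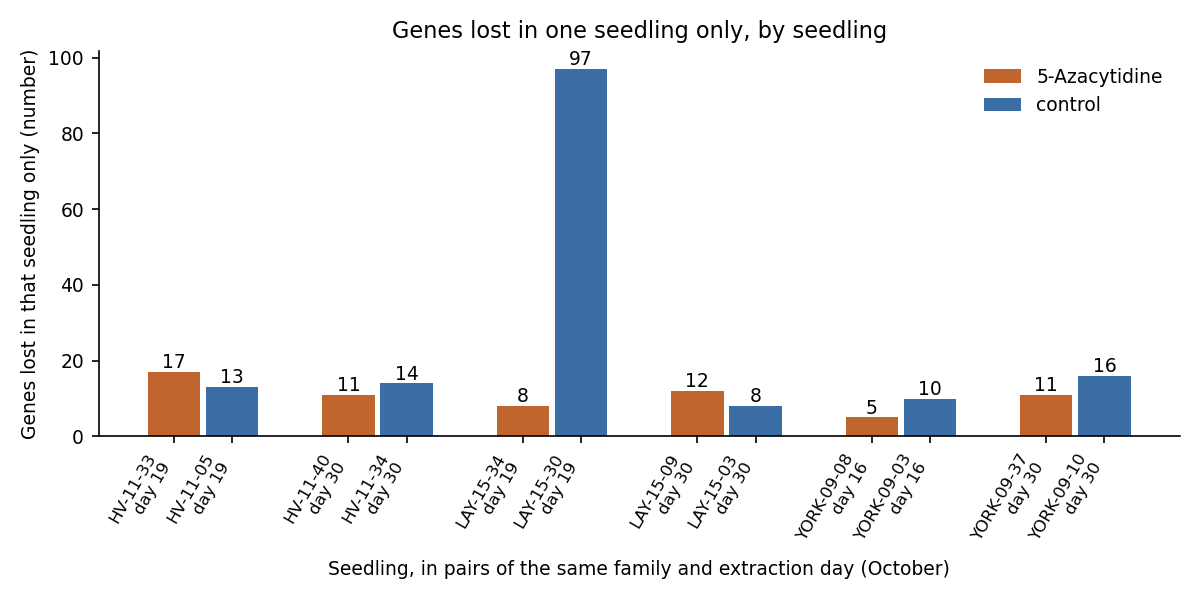
Number of genes lost in that seedling only (vertical axis) for the 12 seedlings, set in 6 pairs of the same family and extraction day with the 5-Azacytidine seedling left of its control. LAY-15-30 stands at 97, and the other 11 seedlings lie between 5 and 17.

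No label accounted for the number of genes lost in 1 seedling only beyond the spread between seedlings. Treated seedlings lost 10.7 ± 4.03 genes and control seedlings 26.3 ± 34.7 genes (mean ± SD, n = 6 each), a difference of -15.7 genes (exact permutation test, two-sided p = 0.275, adjusted p = 0.412 over the 3 label tests). With LAY-15-30 not counted, treated seedlings lost 10.7 ± 4.03 genes (n = 6) and the remaining controls 12.2 ± 3.19 genes (n = 5), a difference of -1.53 genes (exact permutation p = 0.519). Within pairs, treated minus control was 4 and -3 genes in HV-11 (days 19 and 30), -89 and 4 in LAY-15 (days 19 and 30), and -5 and -5 in YORK-09 (days 16 and 30). When treatment was swapped within pairs, the difference of -15.7 had an exact permutation p of 0.344.

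Differences in these single losses among families and among extraction days were likewise not larger than the spread between seedlings. The rule drops any gene that is low in 2 or more seedlings, so losses shared by seedlings of a label are not counted. When LAY-15-30 was left out of the rule, its pair mate LAY-15-34 rose from 8 to 22 lost genes. The label tests therefore cannot show whether losses are shared within a family, day or treatment. LAY-15 seedlings lost 125 genes in all, 28 of them outside LAY-15-30, HV-11 seedlings 55 and YORK-09 seedlings 42. Families held 14.5% of the sum of squares of the number of lost genes (exact permutation test, one-sided p = 0.861). Seedlings extracted on day 16 lost 15 genes (n = 2), those of day 19 lost 135 (n = 4), of which 38 were outside LAY-15-30, and those of day 30 lost 72 (n = 6). Days held 20.8% of the sum of squares (exact permutation test, one-sided p = 0.241, adjusted p = 0.412). With LAY-15-30 not counted, families held 29.7% (exact permutation p = 0.247) and days 29.1% (exact permutation p = 0.249).

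The spread of low counts in LAY-15-30 differed in shape from that of the other seedlings pooled. Lost genes stood at a median log2 ratio to the other seedlings of -5.43 in LAY-15-30 and of -5.57 in the other 11 seedlings. Their closeness is no result, since the rule holds lost values at 3 counts or fewer and log2 CPM used a prior count of 2. Over all 222 genes, the lost seedling had 0 counts for 76 genes, 1 count for 59, 2 counts for 52 and 3 counts for 35. Widening the view to every gene with a single value under 20 added 1182 genes at 4 to 19 counts, 407 of them low in LAY-15-30 and 775 low in another seedling. In LAY-15-30 the genes were spread almost evenly over these counts, with 25 genes at 0, 19 at 3, 28 at 4 and 21 at 19, and no value from 0 to 19 held fewer than 19 or more than 32 genes. In the other 11 seedlings together, 51 genes were at 0, the number fell to 16 at 3, 13 at 4 and 12 at 5, and it then climbed to 107 at 18. Pooled, the genes lost in these 11 seedlings therefore formed a group at the low end with few genes just above it. Those of LAY-15-30 were the low end of an even range. The gap was not in each of the 11. With a limit of 5 in place of 3 counts, HV-11-34 stayed at 14 genes, while YORK-09-08 rose from 5 to 9 and LAY-15-34 from 8 to 12. Of the genes with LAY-15-30 as the single value under 20, 19.2% were at 3 or fewer, a share above that of 9 of the other 11 seedlings, which ran from 5.75% (YORK-09-08) to 33.3% (HV-11-34).

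**Figure D2:**
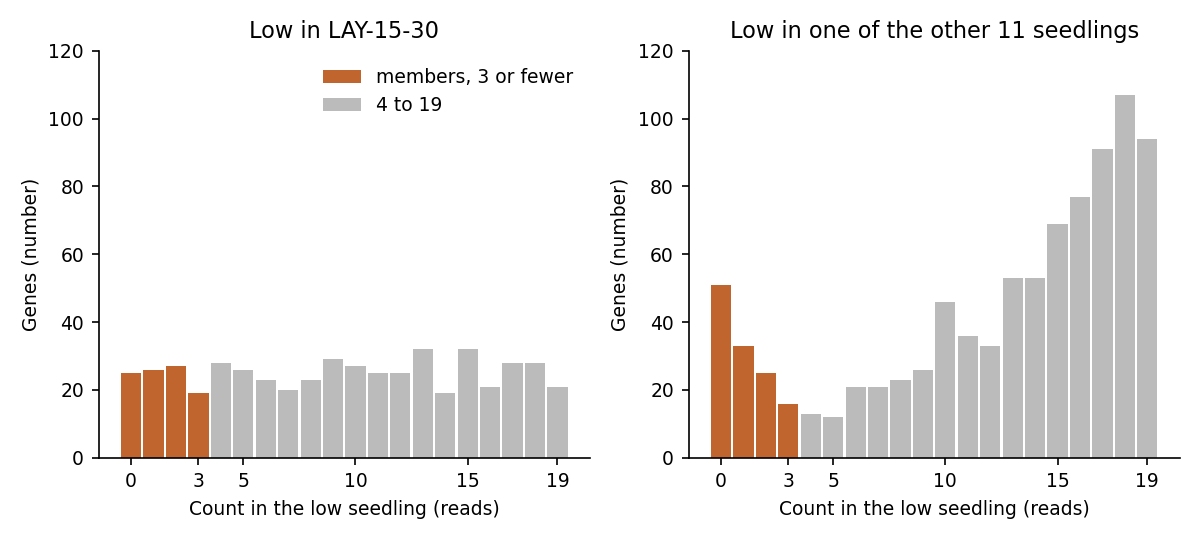
Number of genes (vertical axis) by the count in the only seedling under 20 (horizontal axis, reads), for genes low in LAY-15-30 (left) and in one of the other 11 seedlings (right), with the 222 members in orange. The left panel stays between 19 and 32 genes throughout, and the right panel drops to 12 genes at a count of 5 between its peaks at 0 and 18.

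At the threshold itself, QL01p002146 was inside with 3 counts in LAY-15-30 and 20 counts in its pair mate LAY-15-34, and QL01p002061 was outside with 4 counts in LAY-15-30 and 189 to 1165 counts elsewhere. A second gene just outside, QL01p002372, had 4 counts in LAY-15-30 and 103 to 649 counts in the other seedlings. The rule therefore kept a modestly expressed gene and left out well expressed ones with a single further read. Genes of the opposite kind, with 20 or more counts in 1 seedling and 3 or fewer in each of the other 11, numbered 230, and 80 of them were in LAY-15-30 against 9 to 26 in each other seedling.

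The 222 genes were moderately expressed where they were not lost. Levels are given as CPM, the counts divided by a library size that was scaled by TMM. The median CPM over the other 11 seedlings had a median of 11.2 across the genes (range 2.46 to 135), against 25.1 CPM for the 13189 genes with 20 or more counts in all 12 seedlings. Set against the CPM that 3 counts are worth in the lost seedling, the level of the others was a median of 41.4 times higher (range 9.58 to 526), and it was 100 times higher or more for 32 genes. In 28 genes, each of the other 11 seedlings had at least 100 counts. At the weak end, 73 genes had 20 to 29 counts in their second lowest seedling.

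Expression of these genes also varied among the 11 seedlings that kept it. The SD of log2 CPM over the other 11 seedlings had a median of 0.863 (middle 50% of genes, 0.655 to 1.14). The corresponding median over all 12 seedlings was 0.458 for the 13189 genes at 20 or more counts throughout and 0.487 for the 4295 of them at the same level as the middle 50% of the lost genes. The value was 0.954 for the genes of LAY-15-30 and 0.834 for those of the other 11 seedlings. The highest of the 11 kept counts was a median of 7.3 times the lowest in the lost genes (range 1.6 to 107).

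The most abundant lost gene of each seedling shows the size of these differences. In the HV-11 family, QL01p023477 had 3 counts in treated seedling HV-11-33, against a lowest of 132, a median of 395 and a highest of 709 counts in the other 11 seedlings. QL11p057171 had 1 count in treated seedling HV-11-40, against 147 to 377 counts in the other 11. Both genes were present in the control of the same pair, with 379 counts of QL01p023477 in HV-11-05 and 210 counts of QL11p057171 in HV-11-34. QL03p027650 had 2 counts in control seedling HV-11-05, against 148 to 3054 counts in the other 11, and its pair mate HV-11-33 held 2590. QL93p0043_0065 had 2 counts in control seedling HV-11-34, against 78 to 2541 counts, and its pair mate HV-11-40 held 1385. The median of the others was 789 times the level of the lost seedling for QL03p027650 (95% counting interval 219 to 6518), the largest gap of the 222 genes when the lost value is set to 3 counts.

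In the LAY-15 family, QL05p076088 had 2 counts in treated seedling LAY-15-34, against 236 to 5038 counts in the other 11 seedlings and 938 in its pair mate LAY-15-30. QL10p011085 had 3 counts in treated seedling LAY-15-09 and 141 to 465 counts elsewhere. QL10p049107 had 2 counts in control seedling LAY-15-30, against 384 to 2237 counts, and the highest of these values was that of its pair mate LAY-15-34. The loss in 1 seedling of a pair thus stood beside the highest level of the series in the other. QL10p065831 had 2 counts in control seedling LAY-15-03, against 155 to 1087 counts in the other 11.

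In the YORK-09 family, QL10p004209 had 0 counts in treated seedling YORK-09-08, against 71 to 594 counts elsewhere, so the median of the others was at least 104-fold higher than the floor of 3 counts in that library. QL04p034944 had 3 counts in treated seedling YORK-09-37 and 93 to 820 counts elsewhere. QL05p001077 had 1 count in control seedling YORK-09-03, against 349 to 1226 counts, a ratio of 869 with a wide counting interval of 156 to 34304. QL05p000933 had 2 counts in control seedling YORK-09-10, but LAY-15-09 and LAY-15-34 were also low for it, with 26 and 34 counts, while YORK-09-03 reached 1405. Counting intervals cover counting error only.

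**Figure D3:**
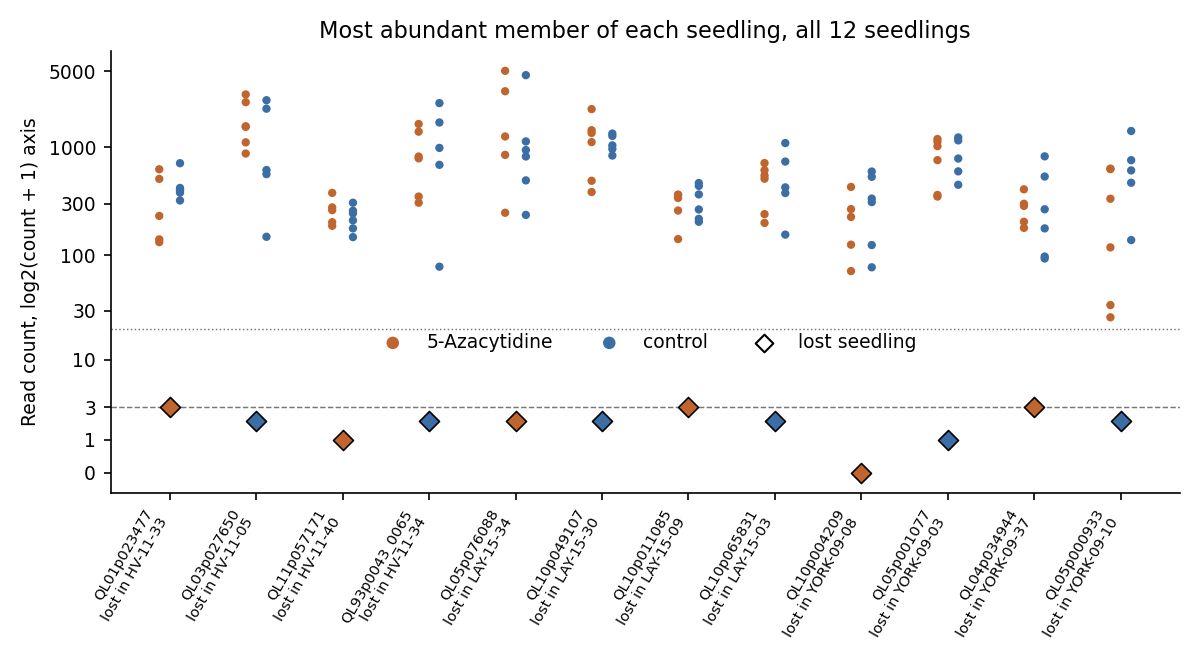
Read counts (vertical axis, log2(count + 1) scale) of the most abundant lost gene of each seedling in all 12 seedlings, with 5-Azacytidine seedlings (orange) left of controls (blue) and diamonds for the lost seedling; the dashed line marks 3 and the dotted line 20 counts. Each diamond lies between 0 and 3 counts, and the other 11 seedlings lie between 26 and 5038.

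The steadiest lost genes had the same form at a small spread. QL12p025913 had 3 counts in HV-11-05 and 20 to 32 counts in the other 11 seedlings, an SD of 0.18 in log2 CPM, and its ratio of 9.58 had a counting interval of 3.28 to 46.5. QL07p000753 had 2 counts in YORK-09-03 and 44 to 98 counts elsewhere. QL10p044103 had 2 counts in LAY-15-30 and 119 to 281 counts elsewhere. In all 3 genes, treated and control seedlings that kept the gene overlapped in their counts.

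Whether a lost gene also responded to 5-Azacytidine was tested with the lost seedling left out, in 12 fits of 11 seedlings each with extraction day as a covariate. None of the 222 genes passed in edgeR's quasi-likelihood test (0 called, where 0% of all gene tests in these fits were called). At an unadjusted p under 0.05 were 14 of the 222 genes (6.31%), against 3.02% of all tests, and 9 of the 97 genes of LAY-15-30 (9.28%), against 3.76%. In DESeq2, 1 of the lost genes was called, against 0.174% of all tests. This gene, QL02p030960, was lost in LAY-15-30 with 3 counts. It had 68, 61, 45, 155, 330 and 97 counts in the 6 treated seedlings, against 4821, 901, 1060, 880 and 211 counts in the 5 other control seedlings. Treated seedlings averaged 11.4 ± 8.66 CPM (n = 6) and those controls 138 ± 157 CPM (n = 5), a log2 difference of -3.58 ± 0.63 (SE). The groups overlapped in counts, since YORK-09-08 with 330 was above YORK-09-10 with 211. Its adjusted p was 0.917 in edgeR and 3.67e-06 in DESeq2, and it ran from 3.67e-06 to 1 over the alternatives. The gene at the other end, QL10p055615, was lost in treated seedling LAY-15-34 with 0 counts and averaged 21 ± 5.26 CPM in the other 5 treated seedlings and 13.3 ± 4.55 CPM in the 6 controls (log2 difference 0.75 ± 0.22, edgeR adjusted p = 1).

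Seedlings that shared a mother with the lost seedling tended to have lower levels of its lost genes. The 3 family mates stood a median of -0.27 on the log2 scale against the 8 seedlings of the other families, with 144 of 222 genes below 0 and 24 more than 2-fold lower. Over all genes with 20 or more counts in all 12 seedlings, the same ratio had a median of -0.01, with 50.8% below 0 and 2.8% more than 2-fold lower. The median was -0.26 for the 97 genes of LAY-15-30 and -0.27 for the 125 genes of the others. By lost seedling, it was below 0 in 9 of the 12 and ran from -0.60 (LAY-15-34) to 0.08 (YORK-09-10). The seedlings of the same treatment as the lost one stood at 0.12 and those of the same extraction day at -0.11. For the 97 genes of LAY-15-30, seedlings of the same day also stood at -0.26, with 64 genes below 0, against 63 for family mates. The lower level was thus not particular to family mates there. For the 125 genes of the others, seedlings of the same day stood at 0.04. Seedlings of the same treatment stood higher for the 97 genes of LAY-15-30, at 0.35, and at 0.06 for the 125 genes of the others. In LAY-15-30, 33 of the 97 genes were below 0 by treatment, against 48.7% of the genes with 20 or more counts throughout. These medians are descriptions over genes chosen together, and genes are not replicates. The lost genes also had a wider spread over the kept seedlings, with a median SD of log2 CPM of 0.863. It was 0.458 over all 12 seedlings for genes at 20 or more counts throughout. Whether the 24 genes exceed what this wider spread gives was not tested, and genes more than 2-fold higher were not counted.

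Gene by gene, the differences between family mates and the other families rarely passed a test, in the lost genes as in genes in general. With the lost seedling left out, 0 of the 222 genes were called in edgeR, against 0.00688% of all tests, and 18 (8.11%) were at an unadjusted p under 0.05, against 6.86% of all tests. In DESeq2, 3 of the 222 were called, against 1.69% of all tests. These rates were near those of all genes and are no trait of the lost genes. QL03p057274, lost in LAY-15-30 with 0 counts, had 26 counts in LAY-15-34, 62 in LAY-15-09 and 219 in LAY-15-03, against 278 to 635 counts in the 8 seedlings of HV-11 and YORK-09. All LAY-15 seedlings were thus below all others (10.4 ± 10.2 CPM, n = 3, against 40.4 ± 12 CPM, n = 8), with a log2 difference of -2.11 ± 0.61 (SE), adjusted p = 0.617 in edgeR and 0.0231 in DESeq2. QL02p077194, lost in the same seedling with 1 count, had 20, 101 and 38 counts in LAY-15-34, LAY-15-09 and LAY-15-03, against 50 to 507 counts in the other families, which overlapped with its family mates (log2 difference -1.73 ± 0.51, adjusted p = 0.633 in edgeR and 0.0559 in DESeq2).

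Other lost genes were highest in the very family that held the loss. QL02p054588 had 3 counts in LAY-15-30 but 352, 316 and 361 counts in LAY-15-34, LAY-15-09 and LAY-15-03, against 95 to 215 counts in the other families. Its family mates averaged 35.1 ± 1.2 CPM (n = 3) and the other families 14.1 ± 3.89 CPM (n = 8), without overlap (log2 difference 1.26 ± 0.29, adjusted p = 0.457 in edgeR and 0.0138 in DESeq2). QL01p004494 had 2 counts in HV-11-33 but 436, 731 and 610 counts in HV-11-40, HV-11-05 and HV-11-34, against 59 to 468 counts in the other families (log2 difference 1.43 ± 0.31, adjusted p = 0.224 in edgeR and 0.00324 in DESeq2). Both genes therefore had their lowest value of the series in the family whose other seedlings had their highest mean.

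In each other seedling, genes lost in LAY-15-30 were more than 2-fold lower more often than genes in general. The share was highest in the pair mate. Relative to the other 10 seedlings, LAY-15-34 stood at a median of -0.51 (log2) over the 97 genes lost in LAY-15-30, and 30 of them were more than 2-fold lower in it, against 6.49% of the genes with 20 or more counts throughout. It was the second lowest seedling in 20 of the 97 genes. HV-11-05, of the same extraction day but another family, was second lowest in 17 genes and more than 2-fold lower in 27 of the 97, against 6.54% of all those genes. LAY-15-03 and LAY-15-09, of the same family but another day, were more than 2-fold lower in 10.3% and 13.4% of the 97 genes, against 2.63% each. The remaining 7 seedlings were more than 2-fold lower in 3.09% (YORK-09-10) to 16.5% (HV-11-40) of them, each above its own share over all those genes, 2.83% and 5.59% in these seedlings. The excess was thus not particular to the pair mate. Medians went both ways, from -0.51 in LAY-15-34 to 0.44 in YORK-09-10, so the genes were not lower in every seedling. They also varied more among the kept seedlings (median SD 0.954 of log2 CPM) than genes at 20 or more counts throughout (0.458 over all 12). Whether the shares exceed what this wider spread gives was not tested. Family and day are shared together only by the pair mate, so their parts cannot be told apart there. Over the 11 other seedlings, the pair mate's median ran from -0.65 to 0.23.

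Position was examined through the order of the identifiers, which number the genes within 12 numbered groups and a further group, 93. Read as kilobases, the largest number in each of the 12 groups reached 99.78% to 100.02% of the end of the last gene on the chromosome of the same number in the RefSeq table (assembly ValleyOak3.2), so the order is taken to follow the chromosomes, with no coordinates given. Every numbered group held lost genes, between 9 (group 06) and 27 (group 10), which is 0.596% and 2.03% of the expressed genes of those groups. An expressed gene here had a median of 20 or more counts, and there were 17845. In group 93, with 153 expressed genes, 7 were lost genes (4.58%). Of the 97 genes of LAY-15-30, 20 were in group 02, which is also the group with the most expressed genes, 2653.

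Lost genes often had a neighbour that was low in the same seedling. For the 125 genes of the 11 seedlings other than LAY-15-30, the nearest expressed gene on at least 1 side had 3 counts or fewer in the lost seedling in 57 cases (45.6%), against 2.15% of all expressed genes in the same seedlings. For the 97 genes of LAY-15-30 it was 21 cases (21.6%), against 7.07% of all expressed genes in that seedling. A stricter comparison is with other expressed genes at 3 counts or fewer whose count was also under 20 in at least 1 other seedling. Of those, 26.2% in the 11 seedlings and 25.9% in LAY-15-30 had such a neighbour. The genes of the 11 seedlings were thus above both backgrounds and those of LAY-15-30 above the first only, as a description without a test. The share was 9 of 14 genes in HV-11-34, 9 of 12 in LAY-15-09 and 6 of 8 in LAY-15-34, and 1 of 5 in YORK-09-08.

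The low level weakened with distance along the order. In the 11 seedlings, the next expressed gene stood at a median log2 ratio of -0.59 on one side and -0.50 on the other (lost seedling over the median of the rest), with 43.4% and 42.7% of neighbours more than 2-fold lower. At 2 genes away the medians were -0.17 and -0.18, and at 6 genes away -0.09 and 0.04. The share of genes more than 2-fold lower was still 24.2% and 24% at 3 genes away and 20% and 24% at 4 genes away, against 6.47% to 13% of all expressed genes by seedling, and at 6 genes away it was 16.8% and 5.83%. Around the genes of LAY-15-30, the medians were -0.32 and -0.45 at the next gene, -0.24 and -0.37 at 2 genes away and 0.10 and -0.07 at 3 genes away. Most neighbours thus kept their level, and a minority was low together with the lost gene.

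**Figure D4:**
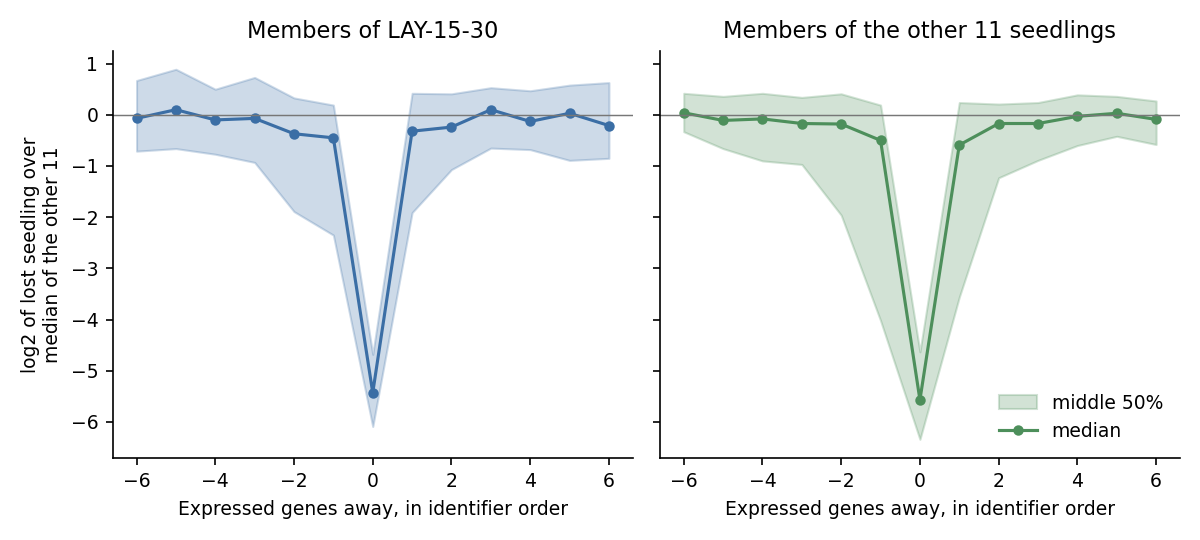
Log2 of the lost seedling over the median of the other 11 (vertical axis) for lost genes (0) and the expressed genes up to 6 away in identifier order (horizontal axis), for LAY-15-30 (left) and the other 11 seedlings (right); lines are medians and bands the middle 50% of genes. At 3 genes away the medians lie between -0.17 and 0.10, and the lower edge of the band at the next gene reaches -4.02 in the right panel and -2.35 in the left.

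Lost genes of the same seedling formed short runs. Counting genes with up to 5 expressed genes between them, the 11 seedlings had 13 runs with 33 of their 125 genes (26.4%), in 9 of the seedlings. LAY-15-30 had 6 runs with 12 of its 97 genes (12.4%), all of 2 genes. The other 11 seedlings had 6 runs of 3 or more genes. A seedling with more lost genes has more of them near each other by placement alone. No background was computed for runs, so the shares of 26.4% and 12.4% are not directly comparable. The number in the identifiers spanned 4 to 238 from first to last gene of a run (median 52). By the same distance, 13 genes, those in runs included, lay near a gene lost in a different seedling.

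The longest run held 4 genes lost in treated seedling LAY-15-34. QL05p076088, QL05p076184, QL05p076195 and QL05p076209 had 2, 1, 1 and 1 counts in that seedling, and their medians over the other 11 were 938, 962, 246 and 346 counts. QL05p076096, the expressed gene among them that was not lost by the rule, had 0 counts in LAY-15-34 and 17 to 60 elsewhere. The expressed genes on either side, QL05p076078 and QL05p076425, had 39 and 29 counts in LAY-15-34, so the loss began and ended between neighbouring genes. The pair mate LAY-15-30 had 938, 63, 107 and 181 counts of the 4 genes.

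The other runs of this length had 3 genes each. In treated seedling HV-11-40, QL09p051998, QL09p052106 and QL09p052121 had 0 counts, against medians of 64, 113 and 109 counts in the other 11. The expressed genes QL09p052051 and QL09p052060 between them had 0 and 1 counts, against 0 to 230 and 7 to 371 elsewhere. QL09p052051 was also at 0 in LAY-15-09, so its low value was not particular to HV-11-40. The next gene after the run, QL09p052136, had 189 counts in HV-11-40, above the 108 to 176 counts of the others. In treated seedling LAY-15-09, QL08p012092, QL08p012137 and QL08p012200 had 1, 0 and 0 counts, against medians of 261, 187 and 72, but QL08p012116 between them kept 16 counts, against 45 to 117 elsewhere. In treated seedling YORK-09-37, QL09p008790, QL09p008866 and QL09p008892 had 0 counts, against medians of 181, 76 and 165, while the next gene QL09p008921 had 542 counts there, above the 38 to 371 counts of the others. In LAY-15-09 the expressed genes beside the run, QL08p012066 and QL08p012211, had 0 and 45 counts, against 3 to 69 and 19 to 195 elsewhere, and the gene after them, QL08p012246, had 53 counts against 106 to 305. Before the run of HV-11-40, QL09p051938 also had 0 counts there, against 8 to 248 elsewhere. The loss thus had a clear edge after the runs of HV-11-40 and YORK-09-37. It went on before the run of HV-11-40 and had no clear edge around that of LAY-15-09.

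Control seedlings held the remaining runs of 3. In HV-11-34, QL07p038742, QL07p038751 and QL07p038757 had 2, 0 and 0 counts, against medians of 467, 31 and 53, and the gene after them, QL07p038766, had 11 counts against 69 to 186 in the others. In LAY-15-03, QL10p065779, QL10p065815 and QL10p065831 had 3, 0 and 2 counts, against medians of 280, 133 and 510, and QL10p065764 before them also had 0 counts, against 4 to 238 elsewhere. Treated seedlings thus held 4 and control seedlings 2 of the 6 runs, too few for a test between them. Whether neighbouring lost genes are copies of each other is not known from the identifiers.

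**Figure D5:**
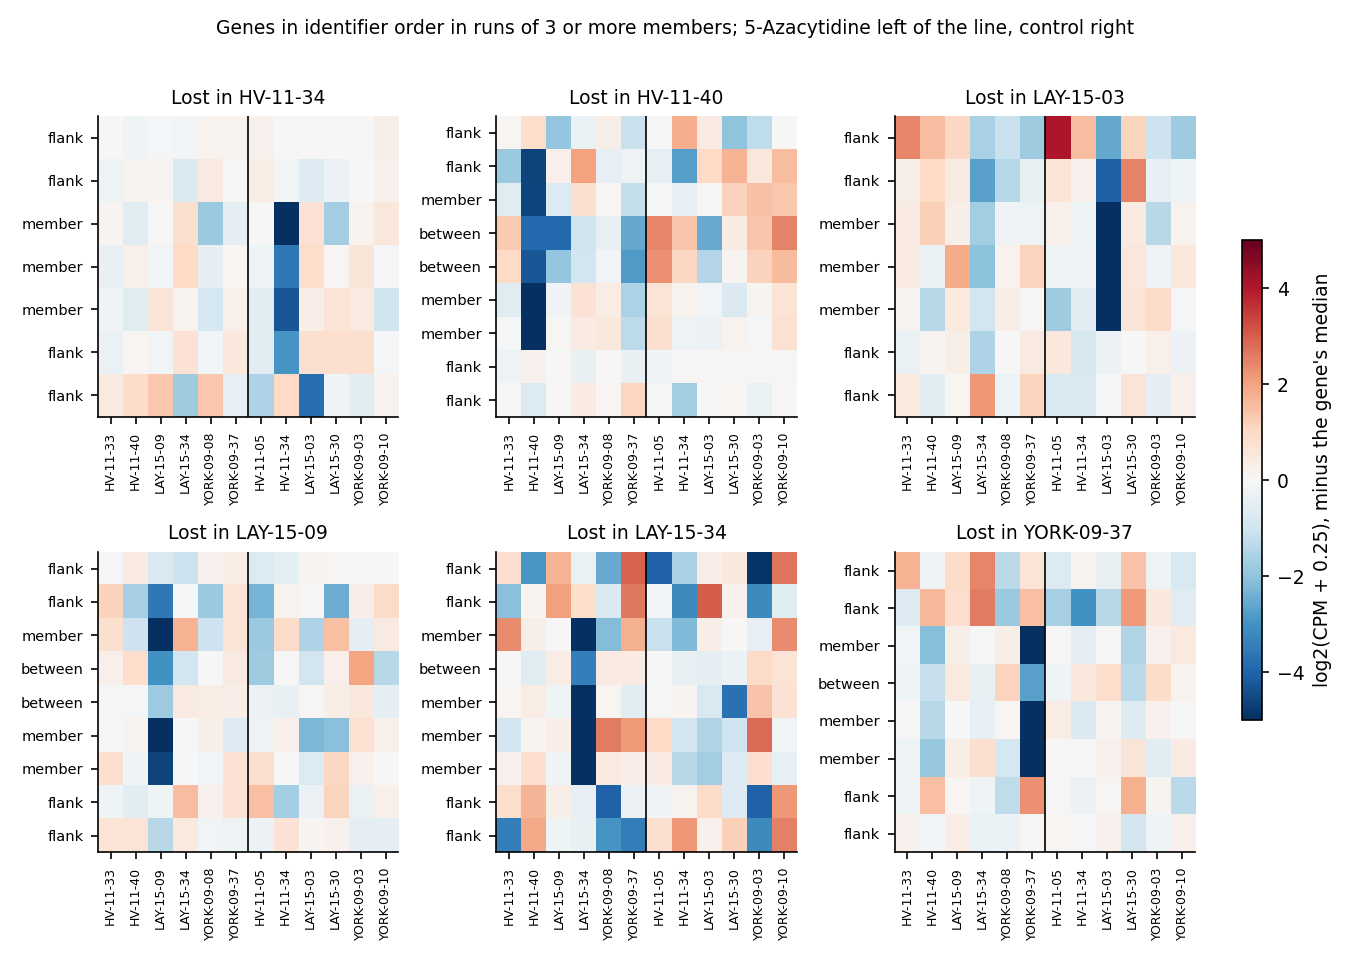
Levels of the genes in the 6 runs of 3 or more lost genes, in identifier order from top to bottom with the expressed genes between and beside them, as log2(CPM + 0.25) minus the gene's median over the 12 seedlings (colour); 5-Azacytidine seedlings are left of the line and controls right. In each panel the dark column is the lost seedling. It goes on into a gene with 0 counts beside the run in LAY-15-09 (QL08p012066), HV-11-40 (QL09p051938) and LAY-15-03 (QL10p065764).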

How the data were processed

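Leaf RNA-seq of 12 seedlings was used, 6 treated with 5-Azacytidine and 6 controls, grouped by the labels. The deposited table holds raw read counts per gene, which the authors made with Cutadapt 2.3, STAR 2.7.1 on version 3.0 of the Q. lobata genome, SAMtools 1.9 (reads mapping to several places removed), Picard 2.20.3 and HTSeq 0.11.1. The strand option and annotation version are not given in the sources used here. Totals ran from 9926728 to 11570198 counts, and columns with no sample numbered 0. The limit of 3 counts, set by the rule, served as the floor of a library.

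The rule was applied to raw counts. Tests kept genes that passed filterByExpr at a minimum count of 10 and a minimum total of 15, with TMM normalization. Then edgeR 4.0.16 (glmQLFit, glmQLFTest) in R 4.3.3 was the main tool and DESeq2 1.42.0 the alternative, with Benjamini-Hochberg adjusted p under 0.05 counted as called over all genes of a fit. Standard errors in edgeR are approximations from the test statistic. Log2 CPM used a prior count of 2. P-values measure the spread between these seedlings. Pairs of family and extraction day, given by the labels, served as the replicate block. Named genes are the most abundant lost gene of each seedling, the 3 steadiest, the extremes of both tests, and genes at the thresholds; run genes and a gene called in DESeq2 with the pairs as block were named after their values were seen. The members and lists were chosen with earlier results of these data known. The fits were tested on simulated data.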

Additional observations from a re-analysis of the deposited data

Results flagged for a closer look

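LAY-15-30 lost 97 genes, far from the next highest seedling among the control seedlings, among the LAY-15 seedlings and among those extracted on day 19. It also had 407 genes whose single value under 20 was 4 to 19, far from the others among the controls and in LAY-15.

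Several named genes had a single seedling far above the rest of its treatment, with the lost seedling set aside. Among treated seedlings, QL02p077194 reached 29.8 CPM in YORK-09-37 and QL01p002372 reached 51.5 CPM in HV-11-33. Among control seedlings, QL01p023477 reached 68.9 CPM in LAY-15-30, QL05p076088 475 CPM in YORK-09-10, QL02p054588 36.2 CPM in LAY-15-03, QL02p030960 413 CPM in HV-11-05 and QL01p002146 55.2 CPM in YORK-09-03. Chance marks about 1 in 20 groups in this way if values are normally spread, which was not checked for these counts and CPM.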

How the results depend on the processing

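The 222 lost genes became 76, 135 and 560 when the lost seedling could hold at most 0, 1 and 10 counts, and 498, 79 and 28 when each other seedling needed at least 10, 50 and 100 counts. Scaling the counts by TMM and by median-ratio size factors gave 190 and 192 genes. Leaving out 1 seedling at a time gave 173 to 266 genes, the fewest without LAY-15-30 and the most without LAY-15-34, where LAY-15-30 held 136 of them. LAY-15-30 kept the most genes under every threshold and scaling, with 32.9% to 50.2% of them.

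The difference of treated minus control seedlings ran from -22.3 to 0.233 genes over those omissions and turned positive only without LAY-15-30. The shares held by families ran from 6.02% to 28.1% and by days from 17.4% to 42.3%. With the replicate block, the difference of -15.7 had an exact permutation p of 0.344, and without the pair of LAY-15-30 the 5 remaining pairs gave -1 (exact permutation p = 0.688). No label test reached p under 0.05 under any alternative. For the 5 remaining pairs, and for day 19 or day 30 alone, there were too few groupings to reach it. Their outcome was fixed in advance and shows nothing.

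In edgeR, 0 lost genes were called for treatment and for family mates under every alternative, the replicate block and each further omission included. Over all genes, the main edgeR fits called 0% of tests for treatment and 0.00688% for family mates, so 0 is no trait of the lost genes. DESeq2 called 1 lost gene for treatment, against 0.174% of all tests, and 3 for family mates, against 1.69%. With the replicate block, DESeq2 called 2 lost genes for treatment. The share over all tests is not given for that setting, so this number cannot be judged. The added gene, QL08p022270, had a log2 difference of -1.02 ± 0.26 (SE, DESeq2 adjusted p = 0.027), against an adjusted p of 1 in edgeR. For family mates, no block could be fitted because pairs lie within families, and the fit lacking YORK-09-10 and YORK-09-37 together could not be made. The median of family mates ran from -0.27 to -0.19 over the omissions. Low neighbours numbered 78, or 99 within 3 genes and 115 at a fall of 4-fold. Runs with up to 1 and 10 genes between, chosen after seeing the data, held 27 and 37 of the 125 genes of the 11 seedlings. The limit of 3 counts for a loss was set by the rule, and 73 genes had a second lowest value of 20 to 29.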
